A study of Mus musculus with 12 samples.

Results

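Cxcl1, Cxcl2, Cxcl3 and Cxcl5 encode chemokines that bind CXCR2 and attract neutrophils. These 4 of the 54232 genes in the count table were chosen by that function, with earlier results over these groups known, so their levels and differences are given as a description and no p-value of theirs is printed. RNA was sequenced from bone marrow derived macrophages (BMDMs) of C57BL/6 mice aged 6 to 8 weeks, grown with M-CSF, giving 12 libraries of 6 groups with 2 libraries each. After 5 days of culture the cells had received for 24 h tumor-conditioned medium (TCM) from either of 2 mouse neuroblastoma lines, or none, and R788 at 500 nM was present or absent in each case. The paper describes NB9464 as carrying amplified MYCN, and its text does not name NBT3L. R788, also called fostamatinib, is a prodrug whose active form inhibits the tyrosine kinase Syk. The groups keep their labelled names, with NS for neither TCM nor R788 and "+ R788" after the TCM where both were given. Libraries SJ1 and SJ2 belong to NS, SJ3 and SJ4 to NB9464 TCM, SJ5 and SJ6 to NBT3L TCM, SJ7 and SJ8 to R788 alone, SJ9 and SJ10 to NB9464 TCM + R788, and SJ11 and SJ12 to NBT3L TCM + R788. NB9464 TCM was collected over 48 h in DMEM without serum, whereas BMDMs were grown in RPMI with serum. How NBT3L TCM was made, which medium cells without TCM received and the vehicle of R788 were not given in the sources used here, so TCM and base medium cannot be told apart. Each TCM came from 1 cell line, and the labels do not say whether libraries came from separate mice or cultures, so the errors measure the spread between these libraries, which may be technical.

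CXC chemokines that carry a glutamate-leucine-arginine motif ahead of their first cysteines bind CXCR2, a receptor that guides neutrophils out of blood into tissue. Macrophages make little of them at rest and much once NF-κB is activated by microbial products or by cytokines such as IL-1 and TNF. Their short-lived mRNAs carry AU-rich stretches in the 3′ untranslated region that are bound by decay factors such as tristetraprolin (Zfp36) and cut by regnase-1 (Zc3h12a). In tumors these ligands are known for bringing in neutrophils and other CXCR2-bearing myeloid cells.

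The 4 genes lie on the forward strand of chromosome 5 (GENCODE M21, GRCm38), Cxcl5 (ENSMUSG00000029371) at chr5:90759360-90761624, Cxcl3 (ENSMUSG00000029379) at chr5:90786103-90789600, Cxcl1 (ENSMUSG00000029380) at chr5:90891241-90893115 and Cxcl2 (ENSMUSG00000058427) at chr5:90903871-90905938. The stretch from the first to the last of them spans 146579 bases and holds 7 protein-coding genes, the other three being Ppbp, Pf4 and Cxcl15. RefSeq promoters (GRCm38.p6) were found for 3 of the 4, all but Cxcl5. They are shown to describe these genes, and any link to their levels was not tested. Each line runs 5′ to 3′ on the forward strand and ends before the first annotated exon base, at chr5:90890995-90891240 for Cxcl1, chr5:90903649-90903870 for Cxcl2 and chr5:90785851-90786100 for Cxcl3. Capitals mark GGAATTTCC, a form of the NF-κB site, and then ATAAAAGG, a TATA-box form that was picked after the sequences had been seen.
Cxcl1: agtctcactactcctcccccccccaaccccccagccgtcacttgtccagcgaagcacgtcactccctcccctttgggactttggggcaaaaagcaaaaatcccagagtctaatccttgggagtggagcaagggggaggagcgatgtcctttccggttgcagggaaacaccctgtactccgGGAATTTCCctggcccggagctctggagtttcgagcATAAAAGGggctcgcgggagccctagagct
Cxcl2: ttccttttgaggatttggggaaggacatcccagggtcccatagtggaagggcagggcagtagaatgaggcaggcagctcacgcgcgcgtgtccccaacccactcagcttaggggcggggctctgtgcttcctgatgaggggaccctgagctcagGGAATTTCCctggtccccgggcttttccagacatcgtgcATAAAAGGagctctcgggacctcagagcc
Cxcl3: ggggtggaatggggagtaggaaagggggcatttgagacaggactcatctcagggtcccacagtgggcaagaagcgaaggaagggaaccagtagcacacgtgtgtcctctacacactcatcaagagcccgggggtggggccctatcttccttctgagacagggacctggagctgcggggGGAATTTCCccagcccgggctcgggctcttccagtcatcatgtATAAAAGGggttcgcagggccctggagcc
GGAATTTCC began 66 bases before the GENCODE gene start in Cxcl1, 68 before it in Cxcl2 and 74 before it in Cxcl3. Of 32851 mouse promoters, 94 (0.286%) held this motif on either strand in the 250 bases before the RefSeq start. ATAAAAGG began 30, 29 and 31 bases before the gene start of Cxcl1, Cxcl2 and Cxcl3, and 1.54% of promoters held it. The AP-1 form TGANTCA, which 6.75% of promoters held, had no match in the 3 windows, and the Sp1 form GGGCGG, held by 32.7%, matched only in Cxcl2, on the forward strand, in a place that overlaps neither marked motif. A match is a description of the letters and was not tested as a binding site.

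The coding sequences were most alike for Cxcl2 and Cxcl3, 89.8% identical, followed by 78.7% for Cxcl1 and Cxcl2 and 75.6% for Cxcl1 and Cxcl3. Cxcl5 was 63.0% to 68.4% identical to the others. Of all stretches of 50 bases in the transcripts, 5.84% of Cxcl2 and 4.24% of Cxcl3 also occurred in another gene, all of the former in Cxcl3 and some of the latter in Cxcl2, against 0.69% of Cxcl5 and 0% of Cxcl1. Reads in the stretches that Cxcl2 and Cxcl3 share cannot be assigned to either with certainty. The stretches came from all annotated transcripts, retained-intron forms among them, 2159 in Cxcl2 and 3587 in Cxcl3. The share within the spliced coding transcripts alone, 1109 and 1016 bases long, was not computed. The longest annotated 3′ untranslated region held the pentamer ATTTA 7 times in Cxcl1, 11 times in Cxcl2, 5 times in Cxcl3 and 5 times in Cxcl5. That of Cxcl2 had 1494 bases, more than its whole spliced coding transcript of 1109 bases, so it came from another annotated transcript. The motifs within the spliced Cxcl2 transcript alone were not counted. As many or more were found in 0.469%, 0.736%, 3.3% and 12.9%, respectively, of mouse 3′ untranslated regions whose length was within 20% of theirs.

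Total counts per library were between 44977847 and 56449685, and 16149 to 18343 genes had a count. Library SJ8 of the R788 group had the highest total and the fewest genes, and the next lowest library had 17275. Among counts from 1 to 40, 65.2% to 67.9% were even, so the counts may hold each fragment as 2 mates. All 8 macrophage markers had at least 10 counts in every library, and their summed level was between 72383 and 86874 TPM (counts divided by gene length and scaled to a fixed sum per library). Lyz2 made up most of that sum, with a mean of 65161.5 TPM in NS, and single markers moved in either direction. Mean Fcgr1 was 342 TPM in NS and 76.8 with R788 alone, and mean Adgre1 was 1448 in NS and 4344 with NBT3L TCM. Of 12 neutrophil markers, Ly6g had at most 4 counts in any library, and Elane and Mpo, which neutrophil precursors express, had at most 8 and 6 counts in any library given TCM, against 47 to 92 in NS. The summed TPM of the neutrophil list was nevertheless 851 to 866 in NS, 1546 to 1681 with NB9464 TCM and 1576 with NBT3L TCM, and 1072 to 1165 in the groups given TCM and R788. Of that list S100a8, Mmp8 and Csf3r rose with each TCM, 4.78-fold, 3.69-fold and 3.05-fold with NB9464 TCM and 6.31-fold, 3.48-fold and 4.25-fold with NBT3L TCM. Elane, Mpo, Ngp, Ltf and Retnlg fell with each TCM and S100a9 with NBT3L TCM, Ltf to 0.245 and 0.267 times its NS level, and Camp and Cxcr2 were not called. Fibroblast, endothelial, dendritic, mast cell and neuroblastoma lists summed to at most 25.2, 22.1, 3.22, 0.760 and 2.27 TPM in any library, and the neuroblastoma sum was 0.149 to 0.168 in NS and 1.16 to 2.27 in the TCM groups. The part of these cell types in the results below was not tested. In bulk RNA, more cells that make a transcript and more transcript per cell cannot be told apart.

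**Figure D1:**
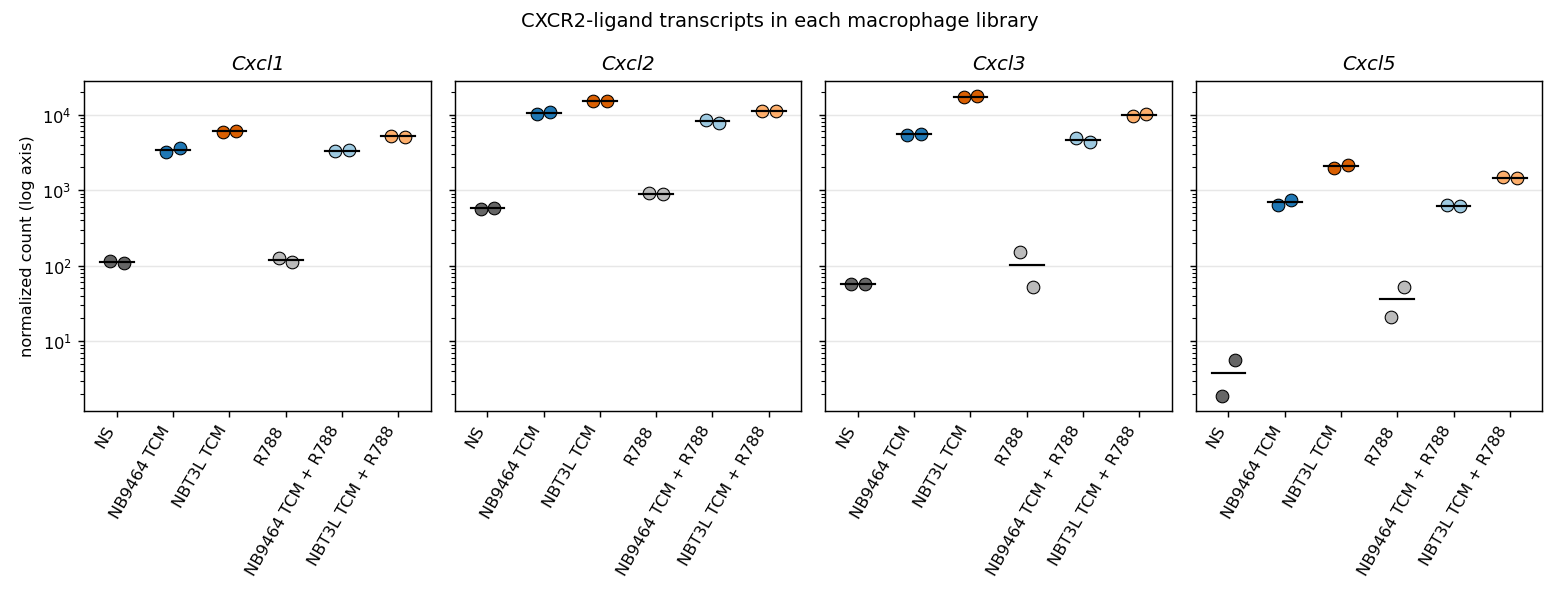
Normalized counts (reads divided by a size factor that corrects for depth, log axis) of Cxcl1, Cxcl2, Cxcl3 and Cxcl5 in the 6 groups, with 1 point per library and a line at the mean of the 2 libraries. All libraries given TCM lie above all libraries without it for each gene, and the NBT3L TCM libraries are the highest.

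In NS, Cxcl2 was the most abundant of the 4 and Cxcl5 was nearly absent. Cxcl2 had 565 and 577 normalized counts, Cxcl1 had 115 and 108, and Cxcl3 had 56.4 and 56.9. Cxcl5 rested on 2 and 6 reads, 1.88 and 5.69 normalized counts.

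With NB9464 TCM all 4 genes were far higher than in NS. Cxcl2, the most abundant, had 10292 and 10969 normalized counts, a log2 fold change of 4.22 ± 0.08 (SE) or 18.6-fold. Cxcl3 had 5435 and 5588, which was 6.60 ± 0.40 on the log2 scale or 97.3-fold, and Cxcl1 had 3202 and 3559, which was 4.92 ± 0.13 or 30.4-fold. Cxcl5 had 631 and 742 normalized counts. Its ratio to NS per total count was 167, with a 95% interval of 64.7 to 613 from the counts halved for mates (exact, counting error only), because only 8 reads stood on the NS side. The genes with the lowest levels in NS thus had the largest ratios, and no library given this TCM overlapped with an NS library, as was so for 32.8% of tested genes in the same direction. All 4 genes were called higher (adjusted p under 0.05 in a DESeq2 fit over all genes), against 17.2% of 16281 tested genes called higher and 16.9% called lower. The choice of genes used this contrast, so nothing is read from that count. The median log2 fold change of the 4 was 5.76 and that of all tested genes was 0.02.

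NBT3L TCM gave higher levels still. Cxcl3 had 17024 and 17601 normalized counts and was now the most abundant by count, 8.26 ± 0.40 above NS on the log2 scale or 306-fold. Cxcl2 had 15020 and 15203, a difference of 4.73 ± 0.08 or 26.5-fold, and Cxcl1 had 5900 and 6104, a difference of 5.75 ± 0.13 or 53.9-fold. Cxcl5 had 1978 and 2159 normalized counts, and its ratio to NS was 468 (95% counting interval 182 to 1719). No library overlapped with NS for any of the 4, and 32.9% of tested genes were higher without overlap. All 4 were called higher, beside 18.0% of tested genes called higher and 17.3% called lower. The median log2 fold change of the 4 was 7.004, and that of all tested genes was 0. Both TCM comparisons share the NS libraries.

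The TCMs of the 2 lines differed for all 4 genes, which were lower with NB9464 TCM than with NBT3L TCM. The difference was largest in Cxcl3 and Cxcl5 and smallest in Cxcl2. Mean levels with NBT3L TCM were 3.14-fold those with NB9464 TCM for Cxcl3, 3.01-fold for Cxcl5, 1.78-fold for Cxcl1 and 1.42-fold for Cxcl2. The log2 differences (NB9464 minus NBT3L) were -1.65 ± 0.38, -1.59 ± 0.19, -0.83 ± 0.09 and -0.51 ± 0.07 in that order. The libraries of the 2 groups did not overlap for any of the 4, and 25.9% of tested genes were lower without overlap. All 4 were called lower, where 5.72% of tested genes were called lower and 3.69% higher. In the presence of R788 the direction between the lines was the same, with log2 differences of -1.24 ± 0.19 for Cxcl5, -1.09 ± 0.38 for Cxcl3, -0.63 ± 0.09 for Cxcl1 and -0.46 ± 0.07 for Cxcl2. The largest estimate was now that of Cxcl5 in place of Cxcl3. All 4 were again called lower, where 6.09% of tested genes were called lower and 3.53% higher. The call of Cxcl3 in this comparison was lost when any 1 of the 10 libraries outside the R788 group was left out, with a log2 difference between -1.17 and -1.01, and was kept without either R788 library.

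**Figure D2:**
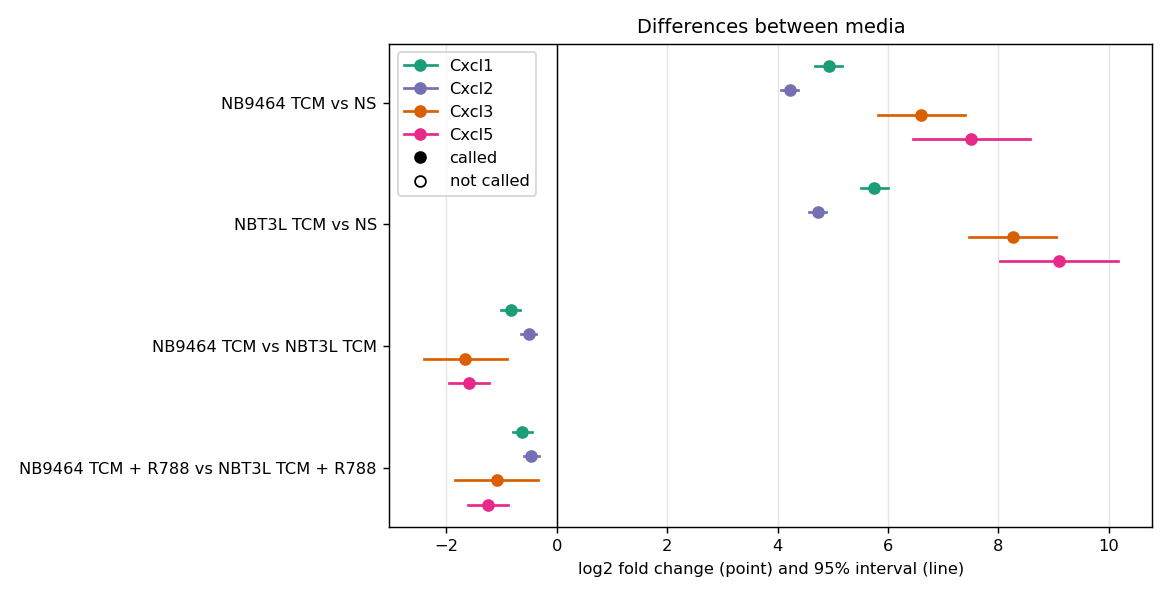
Log2 fold changes (points) with 95% intervals (lines) of the 4 ligands between media, filled where called at an adjusted p under 0.05. Both TCM groups lie above NS, by 4.22 to 7.51 on the log2 scale with NB9464 TCM and 4.73 to 9.10 with NBT3L TCM, and NB9464 TCM lies below NBT3L TCM with and without R788.

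R788 without TCM left Cxcl1 near its NS level, and Cxcl2 and Cxcl5 were called higher. Cxcl5 had 20.9 and 51.9 normalized counts (23 and 65 reads), a ratio to NS of 10.4 with a 95% counting interval of 3.78 to 39.8, and these levels were still far below those with TCM. Cxcl2 had 924 and 876, above both NS libraries, 0.66 ± 0.08 on the log2 scale or 1.58-fold. Cxcl1 had 125 and 110 normalized counts, which overlapped with NS, and a log2 difference of 0.07 ± 0.15 (95% interval -0.23 to 0.37). Cxcl3 differed between the 2 R788 libraries, with 151 normalized counts in SJ7 and 52.7 in SJ8, the latter below both NS libraries. Its log2 difference of 0.84 ± 0.41 (95% interval 0.03 to 1.65) was not called. It was 1.41 ± 0.19 and called without SJ8, and -0.10 ± 0.23 and not called without SJ7, so these data do not fix its direction. Cxcl5 was called without either library, at 2.47 ± 0.62 without SJ8 and 3.78 ± 0.57 without SJ7, and so was Cxcl2, at 0.69 ± 0.09 and 0.62 ± 0.09. In all, 2 of the 4 were called higher and 0 lower, where 11.6% of tested genes were called higher and 15.0% lower. The median log2 difference of the 4 was 0.75 and that of all genes 0.

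In cells given TCM, R788 went with equal or lower levels. In NB9464 TCM, Cxcl2 was 8564 and 7716 normalized counts with R788, below both libraries without it, and fell by 0.38 ± 0.07 on the log2 scale to 76.6% of its mean. Cxcl3 had 4928 and 4391 with R788, 84.5% of the mean without it and outside the range of the libraries without it, with a log2 difference of -0.24 ± 0.38 that was not called. Cxcl5 had 626 and 614, 90.3% of the mean, and Cxcl1 had 3333 and 3347, 98.8% of the mean and inside the range without R788. Their log2 differences were -0.15 ± 0.19 (95% interval -0.52 to 0.22) and -0.02 ± 0.09 (95% interval -0.19 to 0.15). Thus 1 of the 4 was called lower and 0 higher, where 8.70% of tested genes were called lower and 5.79% higher. The median log2 difference of the 4 was -0.195, against -0.003 for all tested genes.

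In NBT3L TCM every R788 library lay below both libraries without R788 for each of the 4 genes, as it did for 27.4% of tested genes. Cxcl3 had 9705 and 10085 normalized counts with R788, 57.2% of the mean without it, the lowest share of the 4. Cxcl5 had 1493 and 1439 or 70.9%, Cxcl2 had 11232 and 11186 or 74.2%, and Cxcl1 had 5246 and 5061 or 85.9%. The log2 differences were -0.81 ± 0.38 for Cxcl3, -0.50 ± 0.18 for Cxcl5, -0.43 ± 0.07 for Cxcl2 and -0.22 ± 0.09 for Cxcl1. Cxcl2 and Cxcl5 were called, and Cxcl1 and Cxcl3 were not. In all, 2 of the 4 were called lower and 0 higher, where 7.24% of tested genes were called lower and 5.33% higher. The median of the 4 was -0.46 and that of all genes 0.003. The call of Cxcl5 was near the threshold and was lost in 11 of 19 alternatives, among them edgeR, TMM scaling and every omission of a library outside the R788 and NS groups. Cxcl3 gained a call in 4 of 19 alternatives, among them edgeR (-0.80), which kept all 12 libraries.

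The SE of Cxcl3 stood apart from those of the other abundant ligands because the fit holds 1 dispersion per gene over all groups, and the R788 libraries differed in Cxcl3 as given above. Without SJ8 the SE of its R788 difference in NBT3L TCM was 0.06 in place of 0.38 and the difference of -0.81 was called. Without SJ7 the difference was -0.81 ± 0.06, also called. In NB9464 TCM the difference of -0.24 was likewise called without either library (SE 0.07). With only the libraries compared, all 4 genes were called lower with R788 in NBT3L TCM, and Cxcl2 and Cxcl3 were called lower in NB9464 TCM. Neither R788 library enters these differences themselves.

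With R788, Cxcl2 was called higher without TCM and lower in each TCM. Cxcl5 was called higher without TCM and lower only in NBT3L TCM, near the threshold. Its difference of -0.15 ± 0.19 in NB9464 TCM was not called, so no opposite direction is shown there. The interaction contrast subtracts the log2 difference with R788 in NS from that in TCM. It was -1.04 ± 0.11 for Cxcl2 and -3.44 ± 0.59 for Cxcl5 with NB9464 TCM, and -1.09 ± 0.11 and -3.79 ± 0.59 with NBT3L TCM, all 4 called. Cxcl3 had -1.08 ± 0.56 with NB9464 TCM, not called, and -1.65 ± 0.56 with NBT3L TCM, called. Without SJ8 the Cxcl3 interactions were -1.65 ± 0.20 and -2.22 ± 0.20, both called, and without SJ7 they were -0.14 ± 0.24, not called, and -0.71 ± 0.24, called. The call with NBT3L TCM was lost when any 1 of the other 10 libraries was left out (-1.68 to -1.62) or when only the libraries compared were fitted (-1.66). The interactions of Cxcl1 were -0.09 ± 0.18 and -0.29 ± 0.18, neither called. The Cxcl5 interactions rest on the 8 NS reads and were called without either R788 library, at -2.62 ± 0.63 and -2.97 ± 0.63 without SJ8.

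Thus 2 of the 4 were called lower and 0 higher for the interaction with NB9464 TCM, where 6.26% of tested genes were called lower and 6.22% higher. For NBT3L TCM 3 were called lower and 0 higher, where 4.96% were called lower and 5.17% higher. The R788 difference in NB9464 TCM minus that in NBT3L TCM was called for 0 of the 4 genes, where 0.283% of tested genes were called higher and 0.424% lower. Its values were 0.56 ± 0.54 for Cxcl3, 0.35 ± 0.26 for Cxcl5, 0.20 ± 0.12 for Cxcl1 and 0.05 ± 0.10 for Cxcl2 on the log2 scale. For Cxcl2 the 95% interval was -0.14 to 0.23. Cxcl3 was called without either R788 library, at 0.57 ± 0.09.

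**Figure D3:**
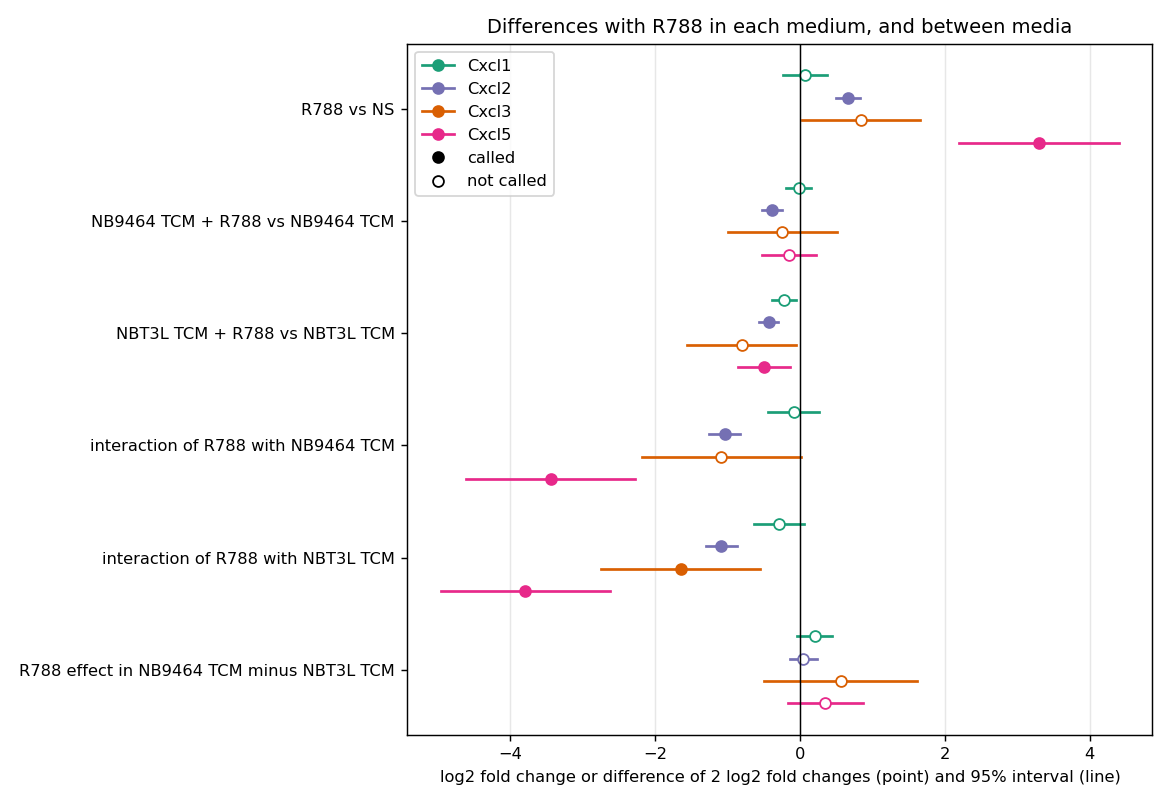
Log2 differences with R788 in cells without TCM and in each TCM, and the differences between those differences (points), with 95% intervals (lines), filled where called at an adjusted p under 0.05. Cxcl5 lies at 3.29 without TCM and at -0.15 and -0.50 with TCM, and Cxcl1 lies between -0.22 and 0.07 in the 3 media.

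With R788 present, levels with TCM stayed many times those without TCM. With both NB9464 TCM and R788, mean levels were 45.8-fold those with R788 alone for Cxcl3, 28.5-fold for Cxcl1, 17.0-fold for Cxcl5 and 9.04-fold for Cxcl2. With NBT3L TCM and R788 they were 97.2-fold, 43.9-fold, 40.3-fold and 12.5-fold. The values of Cxcl3 and Cxcl5 depend on the R788 library used. In NB9464 TCM the Cxcl3 ratio was 88.4 without SJ7 and 30.9 without SJ8, and that of Cxcl5 was 11.9 and 29.7. In NBT3L TCM they were 188 and 65.6 for Cxcl3, and 28.2 and 70.1 for Cxcl5. The order of the 6 groups was the same for all 4 genes. NBT3L TCM was highest, followed by the same TCM with R788, then NB9464 TCM, then that TCM with R788, then R788 alone, and NS was lowest. Neighbors in that order overlapped in their libraries for Cxcl1 between the NB9464 TCM groups and between R788 and NS, and for Cxcl3 between R788 and NS. No other neighbors overlapped. Between NBT3L TCM and that TCM with R788, 27.4% of tested genes were lower with R788 without overlap. For the other neighbors the share over all genes was not computed.

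The make-up of the ligand pool shifted with TCM. Levels of different genes were compared as TPM, and the gene length in the count table included introns of retained-intron transcripts for Cxcl1, Cxcl2 and Cxcl3 (1875, 2068 and 3498 bases, against 953, 1109 and 1016 in the spliced coding transcript). By the length in the table, the 4 genes together had 22.3 and 22.8 TPM in NS, and 793 and 815 with NBT3L TCM. For the spliced lengths, a choice made after seeing the data, only these 4 genes were given another length, and nothing was scaled again. Such values are therefore not comparable with the other TPM values given here. With the spliced lengths the 4 genes together had 43.5 and 44.4 in NS, 67.6 and 74.5 with R788, 1008 and 1020 with NB9464 TCM, and 1832 and 1882 with NBT3L TCM. With R788 they had 790 and 816 in NB9464 TCM and 1271 and 1273 in NBT3L TCM. Cxcl3 made up 8.07% to 8.08% of this sum in NS, 28.1% to 29.1% with NB9464 TCM and 44.4% to 44.6% with NBT3L TCM, where it exceeded Cxcl2.

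The share of Cxcl2 was at least 74.2% in NS, 50.5% with NB9464 TCM and 35.3% to 35.9% with NBT3L TCM. R788 went with a Cxcl3 share of 36.6% to 37.8% in NBT3L TCM, below the libraries without it, and of 28.5% to 29.5% in NB9464 TCM, which overlapped with those without it. Cxcl5 made up at most 3.63% in any library. By the length in the table, Cxcl3 made up 4.57% to 4.58% in NS, 17.4% to 18.1% with NB9464 TCM and 29.8% to 30.0% with NBT3L TCM, and Cxcl2 exceeded it in every library. The direction of the shift was the same with either length, and the top rank of Cxcl3 in NBT3L TCM held only with the spliced length or with no length.

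**Figure D4:**
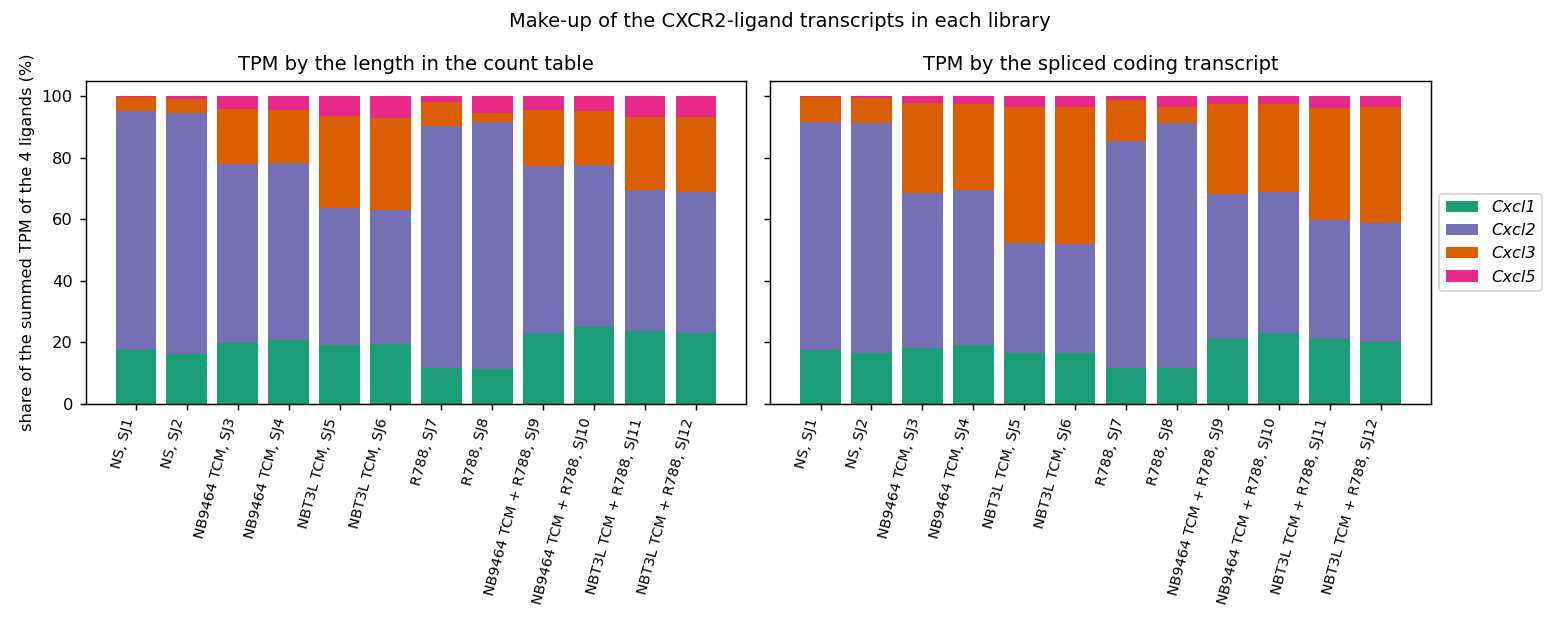
Share of each ligand in the summed TPM of the 4 ligands (%), as a stacked bar per library, with the gene length of the count table (left) and of the spliced coding transcript (right). The Cxcl3 share grows from NS to NB9464 TCM to NBT3L TCM in both panels, to 44.4% and 44.6% at right.

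Among the other ligands of this class, Ppbp followed Cxcl1, Cxcl2, Cxcl3 and Cxcl5 in part, whereas Cxcl15 was absent and the receptors had few reads. The genes in this and the next paragraphs were also listed with earlier results known, and examples were picked after their values were seen. Their adjusted p-values are thus part of the description and not independent tests. Ppbp, a neighbor in the cluster that encodes the precursor of the CXCR2 ligand NAP-2, had 151 and 242 normalized counts in NS, 257 and 259 with NB9464 TCM, and 1014 and 1110 with NBT3L TCM. It rose with NBT3L TCM by 2.43 ± 0.24 on the log2 scale (DESeq2 adjusted p = 9.02e-23) and, at 0.39 ± 0.25, was not called with NB9464 TCM. With R788 in NBT3L TCM it fell by 0.84 ± 0.23 (DESeq2 adjusted p = 0.00386), a call that was lost without SJ5 or SJ12. Ppbp was also called lower with NB9464 than with NBT3L TCM, with log2 differences of -2.04 without R788 and -1.44 with it. Its log2 difference between R788 alone and NS was -0.121 and was not called. Cxcl15, a ligand of the lung epithelium, had 0 counts in every library. Pf4, which lies between Ppbp and Cxcl3 and encodes a CXC chemokine without the CXCR2-binding motif, fell with NB9464 TCM by 0.46 ± 0.07 and rose with NBT3L TCM by 0.96 ± 0.07 (DESeq2 adjusted p = 2.24e-09 and 2.24e-39).

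Cxcr2 had 6 to 62 reads per library and Cxcr1 0 to 20, and neither was called in any of the 10 contrasts. Ackr1, a decoy receptor, had 0 reads in 11 libraries and 2 in the other one. Of 7 tested members of a list of 9 other CXC chemokines, 0 rose and 3 fell with NB9464 TCM, and 2 rose and 1 fell with NBT3L TCM, with medians of -1.20 and 0.03 on the log2 scale. Over all tested genes 17.2% and 18.0% rose and 16.9% and 17.3% fell. Cxcl10, an interferon-induced ligand of CXCR3, fell with R788 in all 3 media, by 2.09 ± 0.28, 2.02 ± 0.30 and 2.09 ± 0.29 on the log2 scale in NS, NB9464 TCM and NBT3L TCM (DESeq2 adjusted p = 4.48e-12, 1.06e-09 and 1.50e-11). Cxcl12, a ligand of CXCR4, rose with R788 in each of them, by 1.95 ± 0.53, 2.25 ± 0.56 and 1.54 ± 0.53 (DESeq2 adjusted p = 0.00139, 7.20e-04 and 0.0266), from levels of at most 47.4 normalized counts. The call for R788 against NS was lost without SJ1, and that in NBT3L TCM was lost with edgeR and without any 1 of the 4 libraries compared.

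All 5 tested genes of a list of 7 inducing cytokines and neutrophil growth factors rose with each TCM, where 17.2% and 18.0% of tested genes did, and their median log2 fold changes were 7.28 and 8.51. Csf3, which encodes the growth factor G-CSF, had 2 and 6 reads in NS, and 4558 and 4965 normalized counts with NB9464 TCM and 6902 and 7308 with NBT3L TCM. Il1b had 52.6 and 55.0 normalized counts in NS, 965 and 1123 with NB9464 TCM, and 9275 and 9335 with NBT3L TCM, and it was 3.16 ± 0.10 lower on the log2 scale with NB9464 than with NBT3L TCM (DESeq2 adjusted p = 8.26e-216). Il1a, Il6 and Tnf were also called higher with each TCM, and all 5 genes were called lower with NB9464 than with NBT3L TCM, Tnf only in 8 of 19 alternatives. Over all tested genes 5.72% were called lower with NB9464 than with NBT3L TCM and 3.69% higher. Il17a had 0 reads in every library and Csf2 at most 12.

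With R788, 3 of these 5 genes fell in NB9464 TCM and 4 in NBT3L TCM, and 0 rose. Over all tested genes 8.70% and 7.24% fell and 5.79% and 5.33% rose. Csf3 fell by 1.98 ± 0.11 and 2.18 ± 0.11 on the log2 scale (DESeq2 adjusted p = 9.31e-70 and 6.65e-87), Il1b by 0.86 ± 0.11 and 0.96 ± 0.10 (1.01e-13 and 1.01e-21), and Il1a by 0.41 ± 0.12 and 1.09 ± 0.12 (0.00709 and 1.64e-17), the Il1a call in NB9464 TCM being lost with edgeR and without SJ3 or SJ10. Set beside these, the called R788 difference of Cxcl2 in the same media was -0.38 and -0.43. In NB9464 TCM that of Cxcl3 was -0.24, that of Cxcl5 -0.15 and that of Cxcl1 -0.02, none of them called. In NBT3L TCM, Cxcl3 had -0.81 ± 0.38 and Cxcl1 had -0.22, neither called, and Cxcl5 had -0.50, called near the threshold. Without TCM, 0 of the 5 rose with R788 and 1, Tnf, fell, where 11.6% of tested genes rose and 15.0% fell.

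Of 12 genes of NF-κB induction, all tested, 9 rose and 0 fell with NB9464 TCM, 8 rose and 0 fell with NBT3L TCM, and 7 rose and 2 fell with R788 alone. Over all tested genes 17.2%, 18.0% and 11.6% rose and 16.9%, 17.3% and 15.0% fell. The median log2 difference of the list was 0.48, 0.65 and 0.23. Nfkbiz, which encodes the IκBζ cofactor of secondary NF-κB targets, rose by 3.03 ± 0.07 and 2.83 ± 0.07 on the log2 scale with NB9464 and NBT3L TCM, and rose further with R788, by 0.39 ± 0.06 and 0.26 ± 0.06 (DESeq2 adjusted p = 1.16e-08 and 4.01e-04). In the TCM media, R788 went with 3 rises and 0 falls in NB9464 TCM and with 3 rises and 2 falls in NBT3L TCM, where 5.79% and 5.33% of tested genes rose and 8.70% and 7.24% fell. The falls were those of Rel and Tnfaip3, the latter a brake on NF-κB. The call of Rel was lost in 9 of 19 alternatives, among them edgeR and each omission of a library given TCM.

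Of 8 genes that act on the stability of CXC mRNAs, 2 rose and 2 fell with NB9464 TCM, and 3 rose and 2 fell with NBT3L TCM, where 17.2% of all tested genes rose and 16.9% fell with the former and 18.0% and 17.3% with the latter. The medians were -0.02 and 0.06. Zc3h12a, whose product cuts such mRNAs, rose by 1.76 ± 0.06 and 1.86 ± 0.06 on the log2 scale. Zfp36 was not called with either TCM and fell with R788 alone by 0.90 ± 0.08 (DESeq2 adjusted p = 1.18e-24), where Elavl1 was also called lower. With R788 in NB9464 TCM, Zfp36 was called lower and Zc3h12a higher, and in NBT3L TCM only Zfp36l2 was called, higher. Over all tested genes 5.79% and 5.33% rose with R788 in these TCMs and 8.70% and 7.24% fell. Of 10 genes that link Syk to NF-κB, 6 rose and 1 fell with NB9464 TCM and 7 rose and 0 fell with NBT3L TCM, with medians of 0.37 and 0.52. Syk, the target of R788, rose by 1.18 ± 0.05 and 1.32 ± 0.05 with the TCMs and by 0.24 to 0.32 with R788 in the 3 media, which measures its mRNA and not its activity.

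**Figure D5:**
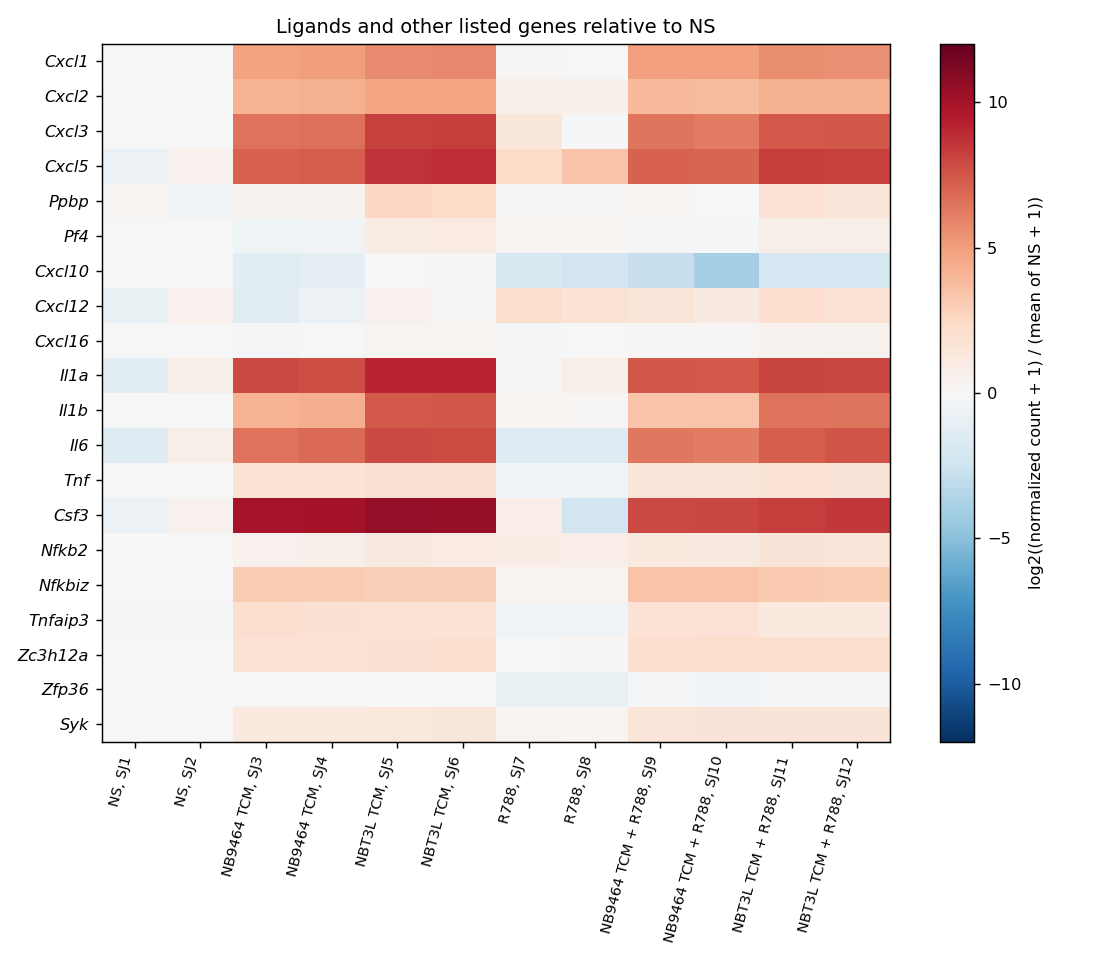
Log2 ratio of the normalized count + 1 in each library to the mean of NS + 1 for the 4 ligands and for genes of the lists described in the text (rows), with red above and blue below NS. Il1a, Il6 and Csf3 are above NS in all TCM libraries, and Cxcl10 is below NS in all R788 libraries.

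Across the 12 libraries the 4 genes moved together, with Pearson correlations of log2(normalized count + 1) of 0.993 among Cxcl1, Cxcl2 and Cxcl3, and of 0.956 to 0.975 between Cxcl5 and each of them. The points share their groups, so the large step between cells with and without TCM carries these values. Among 10330 other protein-coding genes with a mean of at least 100 normalized counts, those most like Cxcl1 included Slpi, Pfkfb3, Tma16 and Ly6i (0.997 to 0.998). Those most like Cxcl2 were Ptges, Slamf6, Pilrb1, Pilra and Fam214b (0.996 to 0.998), and those most like Cxcl3 were Slamf6, Ly6i, Igsf8, Ptges and Mrpl52 (0.991 to 0.994). Those most like Cxcl5 were Lacc1, Gsap, Abcc1, Mmp14 and Tnfrsf1b (0.987 to 0.993). As for the ligands, Ptges, which encodes the inducible prostaglandin E synthase, had mean levels of 407 in NS, 12603.5 with NB9464 TCM and 18739 with NBT3L TCM, and 13001 with NBT3L TCM and R788. Such values were common, since 568 to 869 genes had a correlation above 0.9 with a given ligand.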

How the data were processed

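The authors deposited a table of read counts per gene for 12 bulk RNA-seq libraries. The submitters' processing notes name STAR 2.6.1d, Salmon 1.4.0, SAMtools 1.9, Picard 2.26, MultiQC 1.11 and the mm10 build, and per the methods STAR did the mapping and Salmon the quantification. Of 54232 gene IDs, 54165 were matched to GENCODE M21 for symbols, and the gene lengths in the table equalled the merged exons for 97.3% of genes. The methods state triplicates and single reads, whereas the labels give 2 libraries per group and paired ends, and the labels were followed. The 4 genes and all gene lists were chosen with earlier results of these data known. The 16281 genes that reached 10 counts in 2 or more libraries were fitted with DESeq2 1.42.0 (R 4.3.3) as 6 group means over all 12 libraries, and 10 contrasts were tested with 2-sided Wald tests. A gene was called at a Benjamini-Hochberg adjusted p under 0.05, and fold changes were not shrunken. The alternatives were edgeR 4.0.16 (quasi-likelihood with TMM), TMM scaling in DESeq2, all genes with a count, genes averaging 50 counts or more, no independent filtering, only the libraries compared, counts divided by 2, and each library left out. The fit was tested on simulated data. The text names the 4 ligands, the 5 protein-coding genes (mean of 100 or more normalized counts) whose log2(normalized count + 1) correlated best with each, and genes of the fixed lists, of which the examples were picked after their values were seen. A gene that this rule would name is not reported here. Counting intervals cover counting error only.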

Additional observations from a re-analysis of the deposited data

Results flagged for a closer look

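By the interaction contrast of the DESeq2 fit over all genes, the difference with R788 was not the same in cells with and without TCM for Cxcl2 and Cxcl5, and for Cxcl3 with NBT3L TCM, a call that was lost in 11 of 19 alternatives. With NB9464 TCM the interaction was -3.44 ± 0.59 (SE, log2 scale) for Cxcl5 and -1.04 ± 0.11 for Cxcl2, and -1.08 ± 0.56 for Cxcl3 was not called. With NBT3L TCM it was -3.79 ± 0.59 for Cxcl5, -1.65 ± 0.56 for Cxcl3 and -1.09 ± 0.11 for Cxcl2. Cxcl5 and Cxcl2 were above NS with R788 alone and below the TCM level with R788 and NBT3L TCM. The Cxcl5 values rest on 2 and 6 reads in NS, and the Cxcl3 value with NBT3L TCM moved from -0.71 without library SJ7 to -2.22 without library SJ8. The genes had been chosen with these groups' results known, so the contrasts are given as a description.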

How the results depend on the processing

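Of 760 recomputed log2 differences (4 genes, 10 contrasts, 19 alternatives), 709 kept their direction and their side of the threshold, 32 lost the call, 15 gained it and 4 changed sign. The 4 were uncalled values and changed sign only on leaving out a library. For R788 against NS, the range over the left-out libraries was -0.014 to 0.160 for Cxcl1 and -0.102 to 1.41 for Cxcl3, both lowest without SJ7. For R788 in NB9464 TCM, Cxcl1 ranged from -0.0922 to 0.0604, above 0 without SJ4. For the R788 difference in NB9464 TCM minus that in NBT3L TCM, Cxcl2 ranged from -0.0298 to 0.120, below 0 without SJ9. The number of ligands called with R788 in NB9464 TCM was 1, and 2 with only the libraries compared. It was 1 to 2 on leaving out a library, with 2 without SJ7 or SJ8. With R788 in NBT3L TCM it was 2, and 1 with TMM scaling, 1 without independent filtering and 4 with only the libraries compared. It was 1 to 4 on leaving out a library, with 4 without SJ7 or SJ8. With edgeR it was also 2, but Cxcl3 was called in place of Cxcl5. For the difference of the R788 effects between TCMs it was 0, and 1 with only the libraries compared, and 0 to 1 on leaving out a library. The settings that raised these counts leave out 1 or both R788 libraries, which differ in Cxcl3, and for the others the cause was not tested.

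Over all genes, the R788 difference between TCMs gave 115 calls, 21 with edgeR and 272 with only the libraries compared. It gave 46 to 76 calls on leaving out a library with TCM, and 232 and 234 without SJ7 and SJ8. On leaving out a library, calls fell from 2359 to as few as 1432 for R788 in NB9464 TCM, from 2046 to 1173 for R788 in NBT3L TCM, from 1531 to 795 between the TCMs and from 1567 to 852 between them with R788. The interaction with NB9464 TCM gave 2032 calls and as few as 1344, and that with NBT3L TCM gave 1649, from 1038 without SJ2 to 2583 without SJ7. With 2 libraries per group a group reduced to 1 is assumed to vary like the others. No paired analysis was possible because the groups share no replicate numbers. With no length at all, Cxcl3 made up 7.62% of the ligands' counts in NS, 27.3% with NB9464 TCM and 42.8% with NBT3L TCM. By Spearman correlation, 2, 5, 5 and 4 of the 5 genes most like Cxcl1, Cxcl2, Cxcl3 and Cxcl5 were among the 100 most alike.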
